A study of Mus musculus with 28 samples.

Results

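The 9 genes described here mark B cells and the plasma cells that arise from them: Ms4a1, Cd79a, Cd79b, Pax5, Pou2af1, Mzb1, Jchain, Igkc and Ighm. They were taken by name, though with earlier results of these data known, and all 9 have rows among the 35858 gene symbols of the liver and pancreas libraries of set 2. Of the 24849 gene rows of set 1, 7 belong to these markers, and Igkc and Ighm have none. The study put human APOBEC3B (A3B), a DNA cytosine deaminase, under doxycycline control in mice. In A3B mice the tetO-driven transgene in the ColA1 locus was switched on by rtTA from the broadly active CAGs promoter, with food pellets carrying 625 ppm of doxycycline. Set 2 holds livers of 6 A3B mice and 2 controls and pancreases of 6 A3B mice and 2 controls, all labelled with 10 days of treatment, and 7 mice gave both tissues. Set 1 holds livers of 3 A3B mice and 3 controls and lungs of 3 A3B mice and 3 controls, and A3B 70 and control 91 gave both tissues. Its controls are labelled with 15 days of treatment, A3B livers 23 and 28 with 14 days, and A3B liver 70 and all 3 A3B lungs with 10 days, so that arm and treatment time cannot be told apart in set 1.

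Groups follow the sample titles, and some genotype labels go against them. A3B pancreases 44 and 137 are labelled with the A3B transgene alone, and control pancreases 45 and 168 with A3B plus CAGS-rtTA. In set 1, control liver 11 is labelled as double transgenic. Control lung 87 is labelled with the driver alone, a control genotype of the study, and the other controls with the A3B transgene alone. The list of animals in the study gives no doxycycline to most controls of that set, and the study describes the pooled controls of liver and pancreas as without it, both against the labels, whereas its methods state that control littermates were fed doxycycline. Whether the controls received doxycycline is therefore uncertain. In set 1 the human A3B row ran from 705 to 1705 TPM in A3B livers against at most 0.144 in control livers, and from 90.6 to 281 TPM in A3B lungs against at most 0.526 in control lungs. The transgene of set 2 was not analysed here. TPM is a transcript level scaled for transcript length and library total. Libraries of set 2 held between 65161064 and 118976013 estimated counts, whereas the depth of set 1 is unknown from its TPM values. Of 8 acinar genes tested 7 fell in A3B pancreases, against 31.9% of all genes called in either direction. The 8 summed to 59721 to 160826 TPM there, against 294805 and 307346 in the controls. Hepatocyte genes summed to 32946 to 78420 TPM in A3B livers of set 2 and to 93421 and 141614 TPM in its controls, without overlap. There edgeR called 0 of 7, against 3.66% of all genes, with 3 at an unadjusted p under 0.05. In set 1 the same genes summed to 5885 to 8139 TPM in A3B livers and 9119 to 10929 TPM in controls, also without overlap. By limma 0 of 7 were called there, against 7.93% of all genes. Lung epithelial genes summed to between 18100 and 20402 TPM in the lungs.

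B cells carry an antigen receptor made of a membrane immunoglobulin and a signalling pair. Cd79a and Cd79b encode that pair, Ms4a1 encodes CD20, and Pax5 encodes the transcription factor that holds B cell identity and is silenced when a plasma cell forms. Pou2af1 encodes OBF-1, a B cell coactivator that works with octamer-binding factors. Plasma cells secrete antibody in bulk: Mzb1 encodes an endoplasmic reticulum chaperone for it, Jchain the joining chain of polymeric IgM and IgA, Igkc the constant region of the kappa light chain and Ighm that of the mu heavy chain. Igkc and Ighm are made by both cell types. In healthy liver and exocrine pancreas such cells are few, while lung holds more of them. In bulk tissue, fewer cells of a type and less RNA per cell cannot be told apart.

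Ighm is the one marker whose transcripts separate the surface receptor from the secreted antibody. The gene lies on the minus strand of chromosome 12 at chr12:113418558-113422730 (GRCm38, GENCODE M21). Its 2 annotated transcripts share their constant exons and differ at the 3′ end of the coding sequence. The sequences that tell them apart are printed 5′ to 3′ from the GENCODE transcripts, with the stop codon in capitals. The membrane form splices to 2 further coding blocks, chr12:113418953-113419068 and chr12:113418826-113418834, which follow each other in the transcript. The secreted form reads on into chr12:113420867-113420928.
Ighm membrane form, the longer block: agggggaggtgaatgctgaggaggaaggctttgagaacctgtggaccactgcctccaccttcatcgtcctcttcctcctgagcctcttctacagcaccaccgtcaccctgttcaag
Ighm membrane form, the last block: gtgaaaTGA
Ighm secreted form: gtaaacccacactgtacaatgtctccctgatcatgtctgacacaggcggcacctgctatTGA

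Because the markers varied together across libraries, the start regions of those with a promoter in the RefSeq table (GRCm38.p6) were searched for 3 motifs of B cell factors on both strands. Of the 9 markers, Cd79a, Pax5, Pou2af1 and Jchain were used. The octamer ATGCAAAT was found in none of these 4 windows of 300 bases and in 1.74% of all 32851 promoters. The perfect palindrome bound by EBF1 was found in none of the 4 and in 0.904% of all promoters. Imperfect forms of that site were not searched, so these windows may still hold an EBF1 site. With 4 windows and shares of 1.74% and 0.904% among all promoters, the absence of both motifs does not set these promoters apart. The E-box CAGGTG was found in those of Cd79a and Jchain and in 20.2% of all promoters. The Cd79a stretch upstream of every annotated transcript start, chr7:24897247-24897380 on the plus strand, is given with its E-box in capitals.
Cd79a upstream stretch: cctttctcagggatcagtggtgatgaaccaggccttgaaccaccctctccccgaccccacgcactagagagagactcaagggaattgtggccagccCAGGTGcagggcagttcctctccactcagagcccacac
A match is a description of these letters and says nothing of binding.

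In the pancreas the level of every marker differed more between libraries of one arm than between the arms. Control 168 and A3B 49, 53 and 153 were high for all 9 markers, and control 45 and A3B 44, 125 and 137 were low for all 9. The 2 controls therefore stood at opposite ends, and no marker separated A3B from control: for 0 of 9 did the TPM values of the groups not overlap, against 71.9% of the 19123 genes tested. By edgeR's quasi-likelihood test with Benjamini-Hochberg adjustment, 0 of 9 markers changed, 0 had an unadjusted p under 0.05, and DESeq2 and limma on log2(TPM + 1) also called 0. Of all genes tested in the pancreas, 31.9% were called.

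The B cell receptor pair shows the split. Cd79a was at 13.1 TPM in control 168 and 0.0905 TPM in control 45, a 144-fold gap from 1445 and 10 estimated counts. In A3B pancreases it was at 28.8 TPM in mouse 49, 13.3 in mouse 53, 9 in mouse 153, 1.21 in mouse 125, 1.01 in mouse 44 and 0.953 in mouse 137. A3B values lay on both sides of control 168 and all above control 45. The fitted log2 fold change, A3B over control, was -1.41 ± 1.48 (SE, adjusted p = 0.498). Cd79b was at 24.2 and 0.329 TPM in controls 168 and 45. In A3B pancreases it ran from 1.42 to 32.5 TPM with a median of 6.61. Its fold change was -2.05 ± 1.24 on the log2 scale (adjusted p = 0.24).

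Ms4a1, which encodes the CD20 surface protein, was the marker with the lowest fitted value. Its level was 10.4 TPM in control 168, the highest of the 8 pancreases, and 0.0482 in control 45. In A3B mice it was 6.11 TPM in mouse 49, 2.43 in mouse 53, 1.48 in mouse 153 and between 0.0424 and 0.0879 in mice 44, 125 and 137. The log2 fold change was -3.50 ± 1.78 (adjusted p = 0.173). Pax5 was at 1.92 and 0.118 TPM in controls 168 and 45 and ran from 0.0818 TPM in A3B 44 to 3.81 in A3B 49, with a log2 fold change of -1.33 ± 1.61 (adjusted p = 0.561). The value of control 45 rests on 6 estimated counts of Pax5, fewer than the 22 of A3B 44, whose TPM is lower. Pou2af1 was at 4.09 and 0.0295 TPM in the controls and spanned a 504-fold range in A3B pancreases, from 0.0113 TPM (1 count) in mouse 137 to 5.7 TPM (888 counts) in mouse 49. Its log2 fold change was -2.14 ± 1.74 (adjusted p = 0.381). For each of these 3 B cell genes the same 4 libraries were high.

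Jchain, on the plasma cell side, was at 31.4 TPM in control 168 and 0.647 in control 45. In A3B pancreases it was 25.8 TPM in mouse 53, 7.76 in mouse 49, 1.54 in mouse 153, 0.917 in mouse 125, 0.649 in mouse 44 and 0.256 in mouse 137. Among A3B pancreases only mouse 53 came near control 168, while mice 44, 125 and 153 were at or above control 45 and mouse 137 below it. The log2 fold change was -3.20 ± 1.57 (adjusted p = 0.159). Without A3B 53 it was -4.76 with an adjusted p of 0.034, so that this 1 library decided whether Jchain passed. Jchain was then 1 of 9 markers called, while of 18760 genes 2894 were called higher and 2463 lower. Mzb1 was at 11.3 and 0.192 TPM in controls 168 and 45, and at 16.8 TPM in A3B 53, 9.05 in A3B 49, 2.82 in A3B 153 and at most 0.496 in the other 3 A3B pancreases. Its log2 fold change was -2.06 ± 1.60 (adjusted p = 0.36).

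The immunoglobulin constant genes were the most abundant of the markers. Igkc was at 235 and 7.41 TPM in controls 168 and 45. In A3B pancreases it was 618 TPM in mouse 53, 199 in mouse 49, 58.7 in mouse 153, 15.2 in mouse 44, 10.8 in mouse 125 and 4.16 in mouse 137, a 149-fold range. A3B values lay above, between and below the 2 controls, with a log2 fold change of -1.56 ± 1.67 (adjusted p = 0.508). Ighm was at 96.4 and 3 TPM in the controls and ran from 6 TPM in A3B 137 to 304 TPM in A3B 53, with a median of 26.1. Its log2 fold change was -1.08 ± 1.45 (adjusted p = 0.605).

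**Figure D1:**
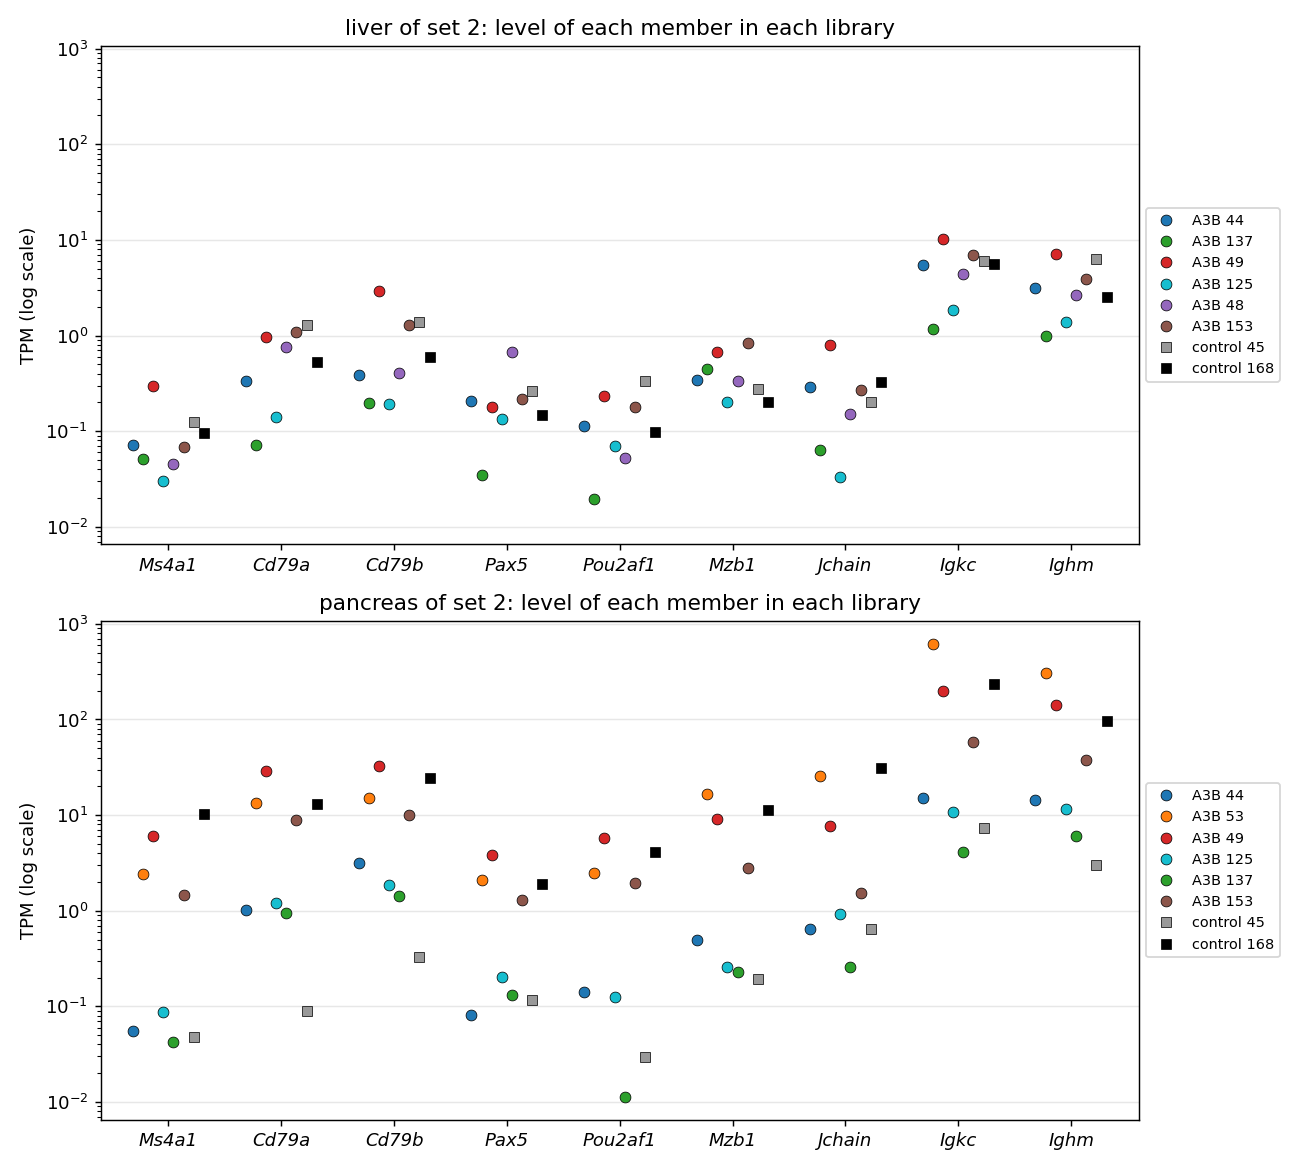
Level in TPM (log scale) of each of the 9 markers in each liver (upper panel) and pancreas (lower panel) of set 2, where circles are A3B mice and squares are controls. In the pancreas control 168 sits with A3B 49, 53 and 153 and control 45 with A3B 44, 125 and 137, whereas the livers lie closer together.

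The fitted fold changes in the pancreas rested on the scaling and on control 168. All 9 were negative with TMM scaling, with a median of -2.05 beside 0.0928 over all genes tested. With counts scaled by library totals alone, the median over all genes moved to 2.29 and that of the markers to -0.144, with 4 markers positive and 5 negative. The same change turned 3249 higher and 2843 lower calls over all genes into 13473 higher and 210 lower ones. Without control 168 all 9 markers were positive, with a median of 2.02 and a smallest adjusted p of 0.341. Without control 45 all 9 were negative, with a median of -2.98 and a smallest adjusted p of 0.139.

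**Figure D2:**
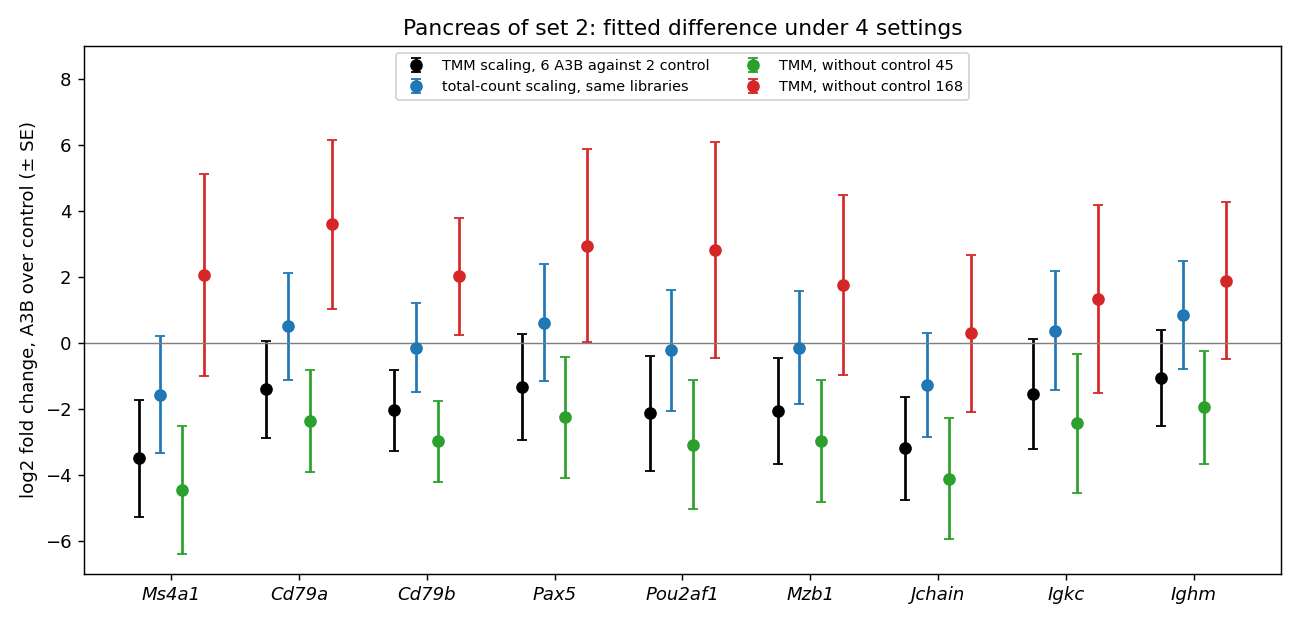
Fitted log2 fold change of each marker in the pancreas, A3B over control, with bars of 1 standard error, for TMM scaling of all 8 libraries, total-count scaling of the same libraries, and TMM scaling without either control. Leaving out control 168 puts all 9 points above 0, and leaving out control 45 puts all 9 below 0.

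Relative to Ptprc, which encodes the pan-leukocyte surface protein CD45, the 2 control pancreases came closer together. Jchain over Ptprc was 5.93 and 3.03 in controls 45 and 168. In A3B pancreases the same ratio was 1.83 in mouse 53 and between 0.0284 and 0.228 in the other 5, so every A3B value lay below both controls. Cd79b over Ptprc was 3.01 and 2.33 in the controls and between 0.157 and 1.07 in A3B pancreases, again without overlap. Ms4a1, Pax5 and Pou2af1 also had ratios below both controls in all 6 A3B pancreases. In control 45 these ratios rest on 11.6, 6 and 6 estimated counts of the markers. For Ms4a1 the ratios were 0.442 and 1 in the controls and at most 0.179 in A3B mice. For Cd79a, Mzb1, Igkc and Ighm the groups overlapped, and each time a library of A3B 53 or, for Cd79a, of A3B 53, 49 and 153 lay above the lower control. In all, 5 of 9 markers had an A3B ratio below both controls, against 4.06% of the 19122 genes tested, and the markers are not independent of each other. The count rests on control 168: without it, 8 of 9 markers but also 85.6% of all genes lay below control 45, so the ratios of control 45 set few genes apart. Without A3B 53 the count was 8 of 9 against 4.32%, all but Cd79a. These counts with a library left out were added after the data were seen.

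Ptprc itself was at 0.109 TPM (42 counts) in control 45 and 10.4 TPM in control 168, and between 8.64 and 34.1 TPM in A3B pancreases. The fitted difference of Ptprc was -0.24 ± 0.95 on the log2 scale (adjusted p = 0.866). Macrophage genes differed between the arms: 9 of 12 rose in A3B pancreases and 0 fell, against 31.9% of all genes called, with summed levels of 2234 to 6461 TPM against 52.1 in control 45 and 583 in control 168. Of 6 pan-leukocyte genes 1 rose, and they summed to 261 to 917 TPM against 3.73 and 170. Of 8 neutrophil genes 2 rose and 1 fell. The part of macrophage RNA in the ratios to Ptprc was not tested.

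**Figure D3:**
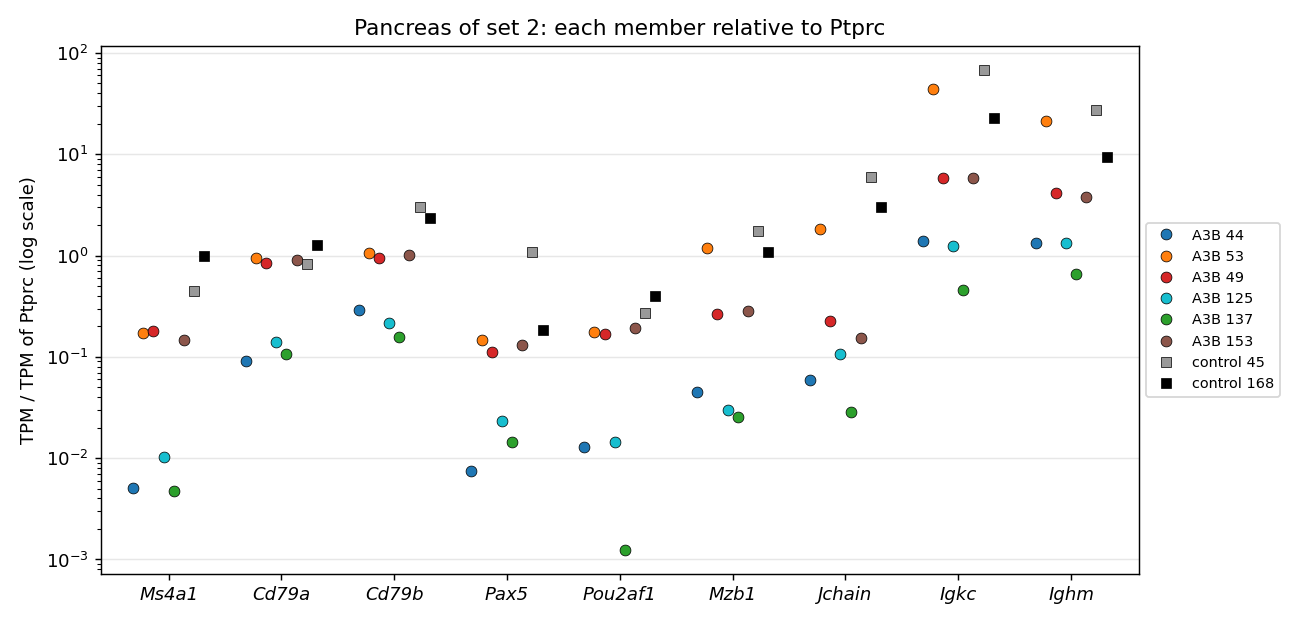
TPM of each marker divided by the TPM of Ptprc (log scale) in the 8 pancreases, circles for A3B mice and squares for controls. For Ms4a1, Cd79b, Pax5, Pou2af1 and Jchain both squares lie above all 6 circles.

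The high pancreases were not alike in their makeup. A3B 53 had the highest immunoglobulin levels relative to Cd79a among them: its Igkc was 46.6 times and its Ighm 22.9 times its Cd79a in TPM. The same ratios were 6.91 and 4.91 in A3B 49, 6.52 and 4.19 in A3B 153, and 18 and 7.38 in control 168. Among the low pancreases they were 81.9 and 33.1 in control 45, from 10 counts of Cd79a, 15.1 and 14.4 in A3B 44, 8.95 and 9.58 in A3B 125, and 4.36 and 6.29 in A3B 137. The secreted transcript made up 86.1% of Ighm TPM in A3B 53 (28730 estimated counts against 5376 of the membrane form), 63.2% in control 168, 41.2% in A3B 153 and 39.3% in A3B 49. Among the low pancreases it was 87.1% in control 45, 62.1% in A3B 44, 48.5% in A3B 125 and 28.2% in A3B 137. The groups overlapped, with both controls among the upper values.

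Ighd, the delta heavy chain that naive B cells carry beside mu, set A3B 53 apart from the other high libraries. It held 15.5%, 20.4% and 14.8% of heavy-chain constant TPM in A3B 49, A3B 153 and control 168, and 1.79% in A3B 53. In the 4 low pancreases the share was between 1.33% and 3.21%. Ighm was the leading heavy chain in every library of set 2, with 69.8% to 96.4% of heavy-chain TPM in the pancreas and 50.9% to 90.9% in the liver. Igha, the heavy chain of IgA, held 12.3% and 21.8% in A3B pancreases 125 and 137 and at most 4.23% in the other 6. In the livers it held 33.6% in A3B 153, 14.9% in A3B 44 and at most 8.93% in the others. Kappa made up between 70.8% and 94.2% of light-chain constant TPM. These shares were not tested between the arms.

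**Figure D4:**
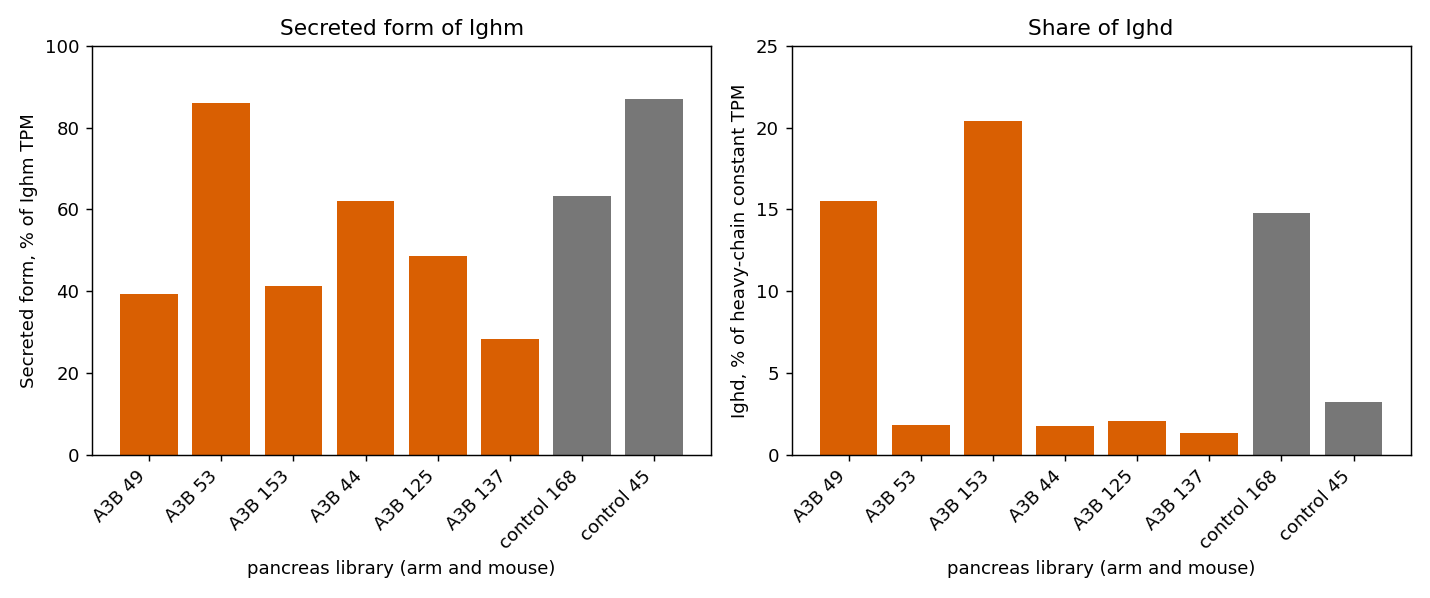
Left, the secreted transcript as a percentage of Ighm TPM, and right, Ighd as a percentage of all heavy-chain constant TPM, in each pancreas (A3B in orange, control in grey). A3B 53 has 86.1% secreted Ighm and 1.79% Ighd, whereas A3B 49, A3B 153 and control 168 have between 39.3% and 63.2% secreted Ighm and between 14.8% and 20.4% Ighd.

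Variable segments followed the constant genes. Of 100 kappa variable genes, 68 had at least 10 estimated counts in A3B 53, 55 in A3B 49, 55 in control 168 and 26 in A3B 153, against 2 in each of A3B 44, 125 and 137 and 5 in control 45. Of 113 heavy variable genes, 44, 44, 16 and 7 reached that count in A3B 53, A3B 49, control 168 and A3B 153, and at most 3 in the low pancreases. The most abundant kappa segment held 13.7% of kappa variable TPM in A3B 53 (Igkv2-137), 7.68% in A3B 49 (Igkv17-121) and 27.8% in control 168 (Igkv6-15). In A3B 44 a single segment, Igkv5-39, held 78.2% of kappa variable TPM, from a total of 316 estimated counts over all kappa segments. Near-identical segments can share reads, so the split between single segments is uncertain.

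The 22 genes listed for recruitment and survival of B and plasma cells did not, as a sum, order the pancreases as the markers did. They summed to 653 TPM in A3B 49, 330 in A3B 53, 232 in A3B 44, 171 in A3B 153, 167 in A3B 125 and 147 in A3B 137, and to 146 and 13.3 TPM in controls 168 and 45. Single genes of lymphoid tissue from that list, picked after their values were seen, differed among themselves. Glycam1, a ligand made by high endothelial venules of lymph nodes, was at 117 TPM in A3B 49, 5.57 in control 168 and 2.46 in A3B 153, and at most 0.14 TPM in the other 5 pancreases, A3B 53 included. Ccl21a, a chemokine that draws lymphocytes into lymphoid tissue, was at 212 TPM in A3B 49, 60.5 in A3B 53, 48.5 in control 168 and 45 in A3B 153, between 18.6 and 31.1 in the low A3B pancreases and at 4.24 in control 45. Ccl19, another such chemokine, was at 43.2 TPM in A3B 49, 10.7 in control 168 and 0.63 in control 45. Cxcl13, which draws B cells into follicles, was at 22.6 TPM in control 168, 21.4 in A3B 53, 15.5 in A3B 125, 12.8 in A3B 49 and 1.29 in A3B 153. Madcam1, an adhesion molecule of mucosal vessels, was at 2.03 to 11.5 TPM in A3B pancreases and at 0.708 and 0.0299 in controls 168 and 45 (2.42 ± 0.92, adjusted p = 0.0702), whereas Lta (-2.21 ± 1.08) and Ltb (-0.83 ± 0.94) had negative fold changes that did not pass. The 12 T cell genes, 0 of them called, summed to 279 TPM in A3B 49, 90.1 in A3B 53, 88.4 in control 168 and 58.6 in A3B 153, against 37.9 to 51.1 in the low A3B pancreases and 5.52 in control 45. Whether lymph node tissue entered some samples was not tested.

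Further genes of the lineage were taken from lists. Of 22 other B cell genes, all were tested in the pancreas, 0 rose and 1 fell, against 31.9% of all genes called in either direction. The fall was in Cd55, which encodes a complement regulator found on many cell types (-1.79 ± 0.47 on the log2 scale, adjusted p = 0.0172). Fcer2a, the low-affinity IgE receptor of mature B cells, was at 11.3 and 0.097 TPM in controls 168 and 45 and between 0.207 and 6.51 in A3B pancreases (adjusted p = 0.0849). Next by p were Ralgps2 (0.60 ± 0.27) and Tnfrsf13c, the BAFF receptor (-2.27 ± 1.14), neither past the threshold. Of 23 other plasma cell genes, 2 rose and 6 fell, a share near the 31.9% of all genes. The rises were Sdc1 (syndecan-1, also made by epithelium) at 3.59 ± 0.41 and Prdm1, the transcription factor of plasma cell differentiation, at 1.15 ± 0.38 on the log2 scale (adjusted p = 0.000297 and 0.0405). The steepest falls were Fkbp11 (-6.50 ± 0.38), Derl3 (-5.71 ± 0.43) and Sec11c (-3.73 ± 0.33), endoplasmic reticulum genes that acinar cells also use. Acinar genes fell in the same libraries, and their part in these 3 values was not tested.

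Of 7 germinal centre genes tested in the pancreas 2 rose, Bcl6 (1.90 ± 0.30) and S1pr2 (1.25 ± 0.24 on the log2 scale), a share near the 31.9% of all genes. Fas (-0.62 ± 0.22) and Gcsam (-1.57 ± 0.84) did not pass. Among 21 recruitment and survival genes tested, Vcam1 (2.85 ± 0.93) and Pigr, the epithelial receptor that carries IgA and IgM across mucosa (1.59 ± 0.53), rose, and Ccl25 fell (-1.56 ± 0.45), fewer calls than the 31.9% of all genes would give. Tnfsf13b, which encodes the B cell survival factor BAFF, was at 1.06 ± 0.39 and did not pass.

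In the liver of set 2 the markers were low and again did not separate the arms. The 9 markers summed to 3.03 to 23.4 TPM in A3B livers and to 16.3 and 10.1 TPM in controls 45 and 168. By edgeR's test 0 of 9 changed and 0 had an unadjusted p under 0.05, against 3.66% of 17365 genes called, and DESeq2 called 0. Limma on log2(TPM + 1), for which 2 markers passed the filter, also called 0. The TPM values of the groups overlapped for all 9, whereas for 29.7% of genes tested they did not. The fold changes were negative for 8 markers and positive for Mzb1, with a median of -0.724 beside 0.21 over all genes. With total-count scaling that overall median was 0.675, the calls over all genes went from 218 higher and 418 lower to 879 higher and 241 lower, and 3 of the 9 markers were positive.

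Single markers in the liver rested on few counts. Cd79a was at 1.3 TPM (136 counts) in control 45 and 0.532 TPM (56 counts) in control 168. In A3B livers it was 1.08 TPM in mouse 153, 0.955 in mouse 49, 0.759 in mouse 48, 0.333 in mouse 44, 0.14 in mouse 125 and 0.0721 in mouse 137. None of the 6 reached control 45 and 3 lay below control 168 (log2 fold change -1.0 ± 0.91, adjusted p = 0.544). Pou2af1 had the smallest p, with 0.333 and 0.0974 TPM in the controls and a median of 0.0911 TPM in A3B livers (-1.38 ± 0.78, adjusted p = 0.319). Igkc was at 6.02 and 5.61 TPM in the controls and ran from 1.16 to 10.2 TPM, with a median of 4.91, in A3B livers (-0.57 ± 0.73, adjusted p = 0.677). Mzb1 was at 0.276 and 0.201 TPM in the controls, and 5 of 6 A3B livers lay above both, with 0.842 TPM the highest (0.73 ± 0.68, adjusted p = 0.559). Jchain ran from 0.0331 to 0.792 TPM in A3B livers, around the 0.204 and 0.33 of the controls. Ighm in its secreted form made up 8.41% to 81.7% of Ighm TPM in A3B livers and 37.2% and 24% in controls 45 and 168. Relative to Ptprc, 0 of 9 markers lay below both controls in all A3B livers, against 1.7% of genes tested. A3B liver 48 was the lowest liver of set 2 in macrophage and pan-leukocyte sums but the highest in the T cell sum, 26.6 TPM. That liver had a macrophage sum of 44.2 TPM against 481 to 1475 in the other A3B livers. Without it Pou2af1 and Ighm lay below both controls, 2 of 9 against 5.44% of genes, and without control 168 Pou2af1 did, 1 of 9 against 2.37%.

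A3B liver 49 was the highest liver for 5 of the 9 markers, and the mouse it came from had the highest Cd79a among the pancreases. The 9 markers summed to 23.4 TPM in that liver, and its pan-leukocyte genes to 259 TPM against 14.7 to 105 in the other A3B livers and 45.2 and 57.1 in the controls. Liver 125 or 137 was the lowest of the 8 livers for 8 of 9 markers, and the pancreases of both mice were among the low ones. Control 45 went the other way, being above control 168 in the liver for 8 of 9 markers and below it in the pancreas for all 9.

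The difference between tissues in the A3B effect was tested as an interaction over all 16 libraries of set 2. It was negative in the pancreas relative to the liver for all 9 markers, and edgeR called 0 of 9, with 0 at an unadjusted p under 0.05, against 11.9% of 19908 genes. Mzb1 had the smallest p, with an interaction of -2.62 ± 1.96 on the log2 scale (adjusted p = 0.4). With mouse as a block, 7 of 9 were negative, 1 had an unadjusted p under 0.05 and the smallest adjusted p was 0.0844. Without control pancreas 168 all 9 interactions were positive, with a median of 2.92. Of the lists, 0 of 22 other B cell genes passed, 5 of 23 other plasma cell genes did (1 higher, Sdc1, and 4 lower, among them Sec11c, Fkbp11 and Derl3), 2 of 7 germinal centre genes were higher (Bcl6 and S1pr2) and 1 of 21 recruitment genes was, Pigr. The calls over all genes were 1367 higher and 1000 lower with TMM and 7845 higher and 223 lower with total-count scaling.

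The markers varied as one group across set 2. For the deviations of log2 CPM (counts scaled to library size) from the mean of each tissue and arm, the 36 pairs of markers had Pearson correlations between 0.795 (Pax5 with Jchain) and 0.98 (Igkc with Ighm), with a median of 0.909, over 16 libraries. These libraries share depth and scaling, and the 4 high and 4 low pancreases carry much of the spread. In each tissue the deviations of the 2 controls mirror each other by construction, so they are not separate points. Outside the markers, and immunoglobulin segments aside, the 5 of 11460 genes nearest to Cd79a were Cmah (r = 0.917), Arhgap4 (0.913), Acap1 (0.896), Gimap3 (0.887) and Sept1 (0.886). The 5 nearest to Jchain were Cdk6 (0.859), Cidec (0.85), Ptpn22 (0.833), Il18 (0.828) and Clec9a (0.827).

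In the liver of set 1 the receptor pair was lower in most A3B samples. Cd79b was at 9.64, 4.5 and 2.41 TPM in controls 91, 11 and 92 and at 1.99, 0.379 and 0.302 TPM in A3B 70, 23 and 28, without overlap. On log2(TPM + 1) limma gave -1.74 ± 0.51 (adjusted p = 0.0722). Cd79a was at 3.7, 1.96 and 0.791 TPM in the same controls and at 0.96, 0.135 and 0.141 TPM in the A3B livers. Only A3B 70 reached into the control range (-1.10 ± 0.44, adjusted p = 0.135). These were the 2 markers tested, since Igkc and Ighm have no row and the other 5 were below a mean of 1 TPM. Both had an unadjusted p under 0.05 and 0 passed the adjusted threshold, against 7.93% of 11507 genes called. Cd79b alone of the 2 did not overlap between groups, as did not 38.9% of genes. Without A3B 70, the one A3B liver labelled with 10 days rather than 14, the value of Cd79b was -2.12 with an adjusted p of 0.0485. In that fit 819 of 11436 genes were called higher and 511 lower.

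Relative to Ptprc both receptor genes lay below all controls in all 3 A3B livers of set 1, against 5.31% of genes tested. Cd79a over Ptprc was between 0.00498 and 0.0112 in A3B livers and between 0.0389 and 0.153 in controls. Cd79b over Ptprc was between 0.0107 and 0.0251 against between 0.0896 and 0.4. A3B 70, with the highest level of both receptor genes among the 3, also had the highest Ptprc of the 6 livers, 85.4 TPM. Of the markers below the filter, Jchain was at most 0.0546 TPM in A3B livers and at least 0.105 in controls. Pou2af1, Mzb1 and Pax5 stayed under 1 TPM in every liver, and Ms4a1 was listed at 0 in all 12 samples of set 1. Because lungs with up to 73.2 TPM of Cd79a also list Ms4a1 at 0, that entry is not read as a level. Control liver 11, the one labelled double transgenic, lay between the other controls for both receptor genes.

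In the lung, the tissue of set 1 with the most B cell transcripts, 4 of 5 markers tested had negative fold changes in A3B mice and 0 were called. Cd79a was at 73.2, 47.1 and 16 TPM in controls 91, 88 and 87 and at 32, 15.2 and 9.2 TPM in A3B 70, 74 and 69 (limma, -1.16 ± 0.69, adjusted p = 0.239). Cd79b was at 168, 90.4 and 37.9 TPM in the same controls and at 49.2, 28.7 and 22.1 TPM in the A3B lungs (-1.37 ± 0.60, adjusted p = 0.125). Pax5 was at 4.67, 2.97 and 0.771 TPM in controls and at 1.05, 0.691 and 0.415 TPM in A3B lungs (-1.01 ± 0.43, adjusted p = 0.112). In all 3 genes A3B 70 lay above control 87, so the groups overlapped, and control 87 is the mouse with the driver alone. Mzb1 followed the same order of libraries, with 8.48 TPM in control 91 and 1.5 TPM in A3B 69.

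Control lung 87 decided whether Cd79b and Pax5 passed. By limma 0 of 5 markers passed with all 6 lungs and 0 had an unadjusted p under 0.05, against 36.8% of 13651 genes called. Without control 87, Cd79b was at -1.93 (adjusted p = 0.0297) and Pax5 at -1.48 (adjusted p = 0.0117). These were 2 of the 6 markers tested in that fit, while of 13675 genes 1811 were called higher and 2311 lower, a share near it. The TPM values of the groups overlapped for all 5, whereas those of 53.9% of genes did not. Relative to Ptprc 0 of the 5 lay below all controls, against 11.4% of genes. Without control 87 (12.2% of genes) or without A3B 70 (12.5%) 4 of 5 did, all but Jchain. Jchain went its own way, with 7.03 TPM in A3B 70, 1.57 in A3B 74, 0.823 in A3B 69 and 0.523 to 1.93 in controls (0.62 ± 0.59, adjusted p = 0.451), and without A3B 70 its fold change was -0.01. That lung also held 89.4 TPM of Glycam1 and 65.2 TPM of Cxcl13, against at most 1.12 and 20.7 in the other 5 lungs, and the part of these in Jchain was not tested.

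**Figure D5:**
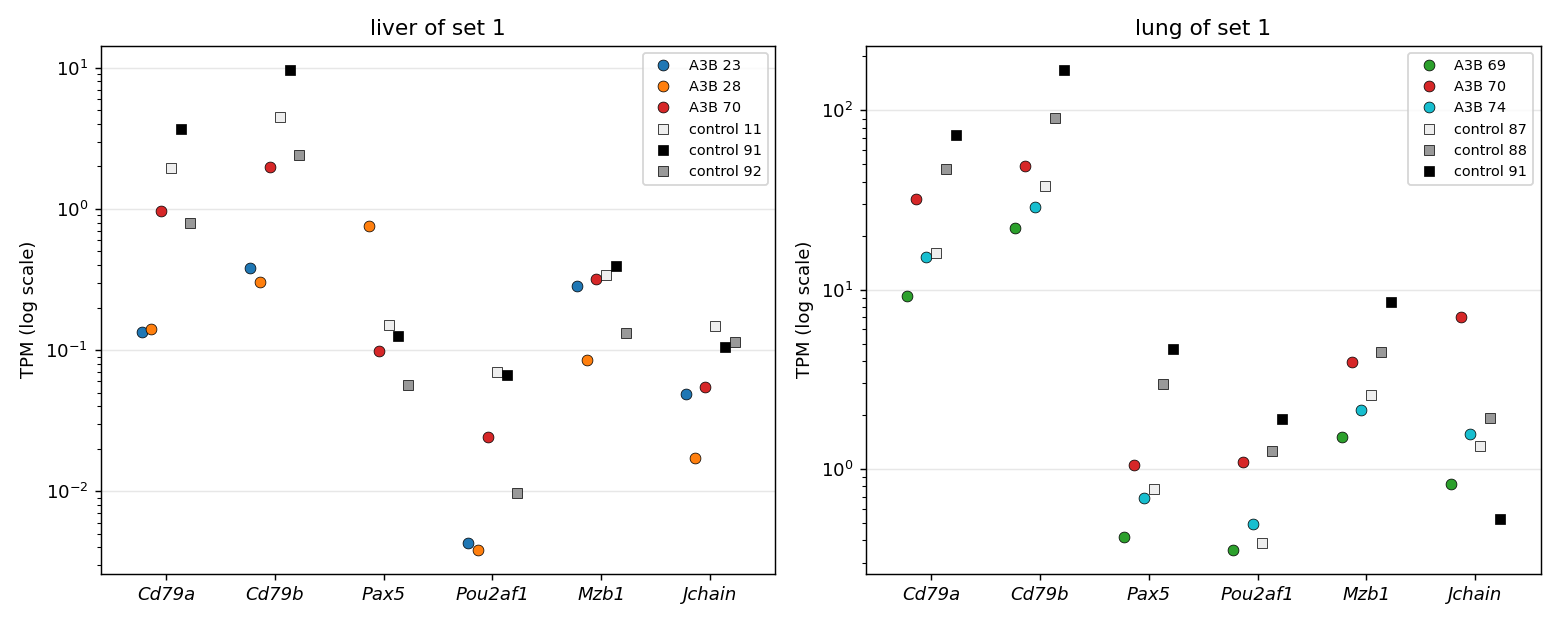
Level in TPM (log scale, with different ranges) of the 6 markers with values in the livers (left) and lungs (right) of set 1, circles for A3B mice and squares for controls. A zero is not drawn. Cd79b in the liver shows all 3 circles below all 3 squares, and in the lung A3B 70 lies above control 87 for Cd79a, Cd79b and Pax5.

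Of 21 other B cell genes tested in the lung, 0 rose and 5 fell. That share lies below the 36.8% of all genes called in the lung in either direction, and near the share that fell, 2838 of 13651. The calls are therefore no result about B cell genes as a group. Fold changes were negative for 20 of the 21, with a median of -0.962 beside -0.0591 over all genes. These genes are not independent of each other, and the list was not tested as a set. Vpreb3, a gene of the B cell lineage, fell by 1.17 ± 0.15 on the log2 scale (adjusted p = 0.0042), and Ciita, the master regulator of MHC class II genes, by 1.74 ± 0.36 (adjusted p = 0.0148). Cd74, the class II invariant chain that macrophages and dendritic cells also make, fell by 0.80 ± 0.19, Fcer2a by 2.61 ± 0.70 and Cr2, complement receptor 2, by 1.12 ± 0.33. Fcer2a was at 4.6, 19 and 34.5 TPM in controls 87, 88 and 91 and between 1.05 and 2.14 in A3B lungs, so this mature B cell gene did not overlap between groups. Among 13 recruitment and survival genes tested 2 fell: Tnfsf13b by 0.97 ± 0.17 (adjusted p = 0.00783) and Il7 by 0.38 ± 0.11 (adjusted p = 0.0319). Of 12 other plasma cell genes 2 fell, Sec11c by 0.71 ± 0.15 and Fkbp11 by 0.95 ± 0.20. Both shares lie below the 36.8% of all genes. Of 10 T cell genes tested 1 fell, Cd2 by 0.60 ± 0.15, with summed levels of 149 to 200 TPM in A3B lungs and 195 to 376 in controls. Of all genes tested in the livers, 3.66% were called in set 2 and 7.93% in set 1. Among the livers, of 21 other B cell genes tested in set 2 and 9 in set 1, 0 changed by the adjusted test, with 2 at an unadjusted p under 0.05 in each. One of those was Cd74 in both sets (-1.79 ± 0.62, adjusted p = 0.129 in set 2, and -2.79 ± 0.90, adjusted p = 0.0877 in set 1). The other was Ciita (-1.63 ± 0.68 in set 2 and -1.13 ± 0.48 in set 1). In the liver of set 2, 1 of 16 recruitment and survival genes fell, Ccl28, a chemokine that draws IgA plasma cells to mucosa (-3.12 ± 0.50, adjusted p = 0.0145). The other plasma cell and germinal centre lists gave 0 calls in either liver, with 1 plasma cell gene in each at an unadjusted p under 0.05, Creld2 in set 2 (1.12 ± 0.37) and Sdc1 in set 1 (0.77 ± 0.27). In set 1, 0 of 9 recruitment and survival genes passed, with 4 at an unadjusted p under 0.05.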

How the data were processed

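RNA-seq of mouse liver, pancreas and lung was analysed from processed files. Each set 2 library, as deposited, gives every transcript its estimated count and TPM, made with kallisto against mm10, with no later normalization of the estimated counts. For set 1 the authors gave TPM per gene, made from read counts, without the counts. In set 2, 116640 of 119414 transcripts were matched to GENCODE M21, and estimated counts and TPM were summed per symbol. Transcripts without a gene held 0.23% to 1.47% of a library. In set 1, 4 rows with repeated names were left out, and 26 rows had dates for names.

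Rounded estimated counts were filtered with filterByExpr, scaled with TMM and tested with edgeR 4.0.16 by quasi-likelihood with the robust option, within each tissue and as an interaction. Set 1 was tested with limma 3.58.1 on log2(TPM + 1) where a gene averaged 1 TPM or more. P-values were adjusted by Benjamini-Hochberg over all genes tested, with a threshold of 0.05. A standard error is the absolute log2 fold change divided by the square root of F, or limma's own. Alternatives were DESeq2 1.42.0, total-count scaling, no filter, limma for set 2, another pseudocount, each replicate left out, the A3B pancreases with conflicting labels left out, and mouse as a block. Fits were tested on simulated data. R 4.3.3, Python 3.11.15, numpy 2.4.6, pandas 2.3.3 and matplotlib 3.10.9 were used.

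Livers and pancreases of 7 mice pair by animal: after group means were removed, their deviations correlated between -0.0229 (mouse 49) and 0.294 (mouse 125) over 16737 genes. The replicates of a group are separate mice. The rule for names took all 9 markers, up to 4 genes of each list by smallest p, and the 5 nearest genes to Cd79a and Jchain. Glycam1, Ccl21a, Ccl19, Cxcl13, Madcam1, Lta, Ltb, Ptprc, Ighd, Prdm1 in the pancreas and Cr2 in the lung were picked after their values were seen. Of the list genes, the text gives those among the 4 that passed the test and some that did not, and lists of other cell types by counts and sums. The markers and the lists were chosen with earlier results of these data known. Counting error is largest where markers have few counts, in the livers and in the low pancreases such as A3B 137 and control 45, and set 1 depth is unknown.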

Additional observations from a re-analysis of the deposited data

Results flagged for a closer look

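In liver and pancreas of set 2, 20 groups of 6 A3B libraries were examined, for the 9 markers and the secreted share of Ighm. Of these, 5 had a single library that stood apart from the others by Dixon's criterion (gap over range above 0.625). Marker levels were compared as TPM without a log scale, and they spread up to 504-fold within a group. How often chance meets the criterion with such values was not tested. In the liver of set 2, Ms4a1 was at 0.299 TPM in A3B 49 with the next library at 0.071, and Jchain was at 0.792 TPM in the same library with the next at 0.29. Pax5 was at 0.676 TPM in A3B liver 48 with the next at 0.216, from 27 estimated counts. A3B livers 44, 49 and 153 had 28, 37 and 52 counts of Pax5, so liver 48 did not stand apart in counts. In the pancreas, A3B 53 stood apart for Jchain (25.8 TPM, next 7.76) and Igkc (618 TPM, next 199). The markers are correlated, so these are not independent events.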

How the results depend on the processing

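Of 444 values of markers under 60 alternatives, 388 kept their direction and their side of the threshold, 52 changed sign and 4 passed the threshold that they had missed. With total-count scaling the log2 fold changes that changed sign were 0.0573 for Cd79b and 0.219 for Jchain in the liver of set 2, 0.498 for Cd79a, 0.85 for Ighm, 0.371 for Igkc and 0.608 for Pax5 in the pancreas, and 1.03 for Cd79a, 1.15 for Ighm, 0.424 for Igkc, 1.3 for Pax5 and 0.673 for Pou2af1 in the interaction. With limma on log2(TPM + 1) they were 0.559 for Cd79a, 0.369 for Cd79b, 0.88 for Ighm and 0.0899 for Pax5 in the pancreas. The cause was not tested.

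With mouse as a replicate block, which pairs the tissues of 7 animals, the interaction was 0.98 for Cd79a and 0.194 for Pax5, and 0 markers were called, as without it.

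Leaving out each library in turn gave 0 to 1 markers called in the pancreas (1 without A3B 53), 0 to 1 in the liver of set 1 (1 without A3B 70) and 0 to 2 in the lung (2 without control 87). Over all genes, 2894 were higher and 2463 lower of 18760 in the pancreas without A3B 53. The calls were 819 higher and 511 lower of 11436 in the liver without A3B 70. In the lung without control 87 they were 1811 higher and 2311 lower of 13675. The pancreas and lung counts of markers lie below or near those shares, and so are no result about the markers as a group. In the liver of set 2 Jchain ran from -0.991 to 0.0934, Pou2af1 from -2.03 to -0.519, Cd79a from -1.51 to -0.488, Cd79b from -1.37 to -0.0383, Ighm from -1.33 to -0.275, Igkc from -0.974 to -0.363, Ms4a1 from -1.63 to -0.592, Pax5 from -1.67 to -0.637 and Mzb1 from 0.504 to 0.797. In the pancreas the ranges were -2.37 to 3.6 for Cd79a, -2.99 to 2.02 for Cd79b, -2.12 to 1.89 for Ighm, -3.04 to 1.33 for Igkc, -4.76 to 0.286 for Jchain, -4.46 to 2.04 for Ms4a1, -3.15 to 1.75 for Mzb1, -2.28 to 2.94 for Pax5 and -3.09 to 2.81 for Pou2af1, each positive value being without control 168. In the interaction they were -1.21 to 4.8 for Cd79a, -2.34 to 2.72 for Cd79b, -1.17 to 2.92 for Ighm, -2.33 to 2.12 for Igkc, -4.28 to 0.847 for Jchain, -3.58 to 2.98 for Ms4a1, -3.74 to 1.23 for Mzb1, -0.985 to 4.3 for Pax5 and -1.56 to 4.39 for Pou2af1. In the lung Jchain ran from -0.0136 to 1.06, Cd79a from -1.76 to -0.699, Cd79b from -1.93 to -0.873, Mzb1 from -1.09 to -0.394 and Pax5 from -1.48 to -0.643. In the liver of set 1 Cd79a ran from -1.45 to -0.965 and Cd79b from -2.13 to -1.3. Markers with a ratio to Ptprc below all controls numbered 0 to 2 in the liver of set 2, 5 to 8 in the pancreas, 2 in the liver of set 1 and 0 to 4 in the lung. Where 1 control was left out, the lone control was assumed to vary like the A3B libraries.

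Over all genes, DESeq2 called 1290 higher and 1061 lower in the liver of set 2, against 218 and 418 by edgeR. With 2 controls per tissue in set 2, and these far apart in the pancreas, the standard errors of the markers were up to 1.78 on the log2 scale within the pancreas and up to 2.54 in the interaction. DESeq2 gave no adjusted p for Jchain in the pancreas.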
